A study of Mus musculus with 6 samples.

Results

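Ectoplacental cone cells of the mouse embryo were chosen by counts of 16 genes in single cells of embryos at E5.0, E5.25 and E5.5, the days after mating. A member had 2 or more unique molecular identifiers (UMIs, each standing for 1 captured RNA molecule) of Hand1 and Ascl2 together and none of Elf5, Cdx2 or Nat8l. It also had fewer than 3 UMIs of Prl3d1, Prl3d2 and Prl3d3 together, and low levels of 4 visceral endoderm genes (Cubn, Lrp2, Dab2, Amn) and 4 epiblast genes (Pou5f1, Slc7a3, Pim2, L1td1). These limits were under 10 and under 5 UMIs per 10000. The rule found 241 cells among 18251 kept cells of the 3 libraries and 21856 kept cells of the whole series. Of these, 3 were from E5.0, 5 from E5.25 and 233 from E5.5. Because the members were selected on values of these genes, their levels of the 16 genes are given as a description and are not tested.

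The study profiled whole mouse embryos from E3.5 to E5.5 by droplet-based 3′ single-cell RNA sequencing, with 1 library per stage. The 3 libraries used here held hybrid embryos of B6SJLF1/J females, aged 7 weeks, mated with B6CBAF1/J males. All were dissected from the uterus and dissociated to single cells, and the labels name no allele or treatment. Cells of E5.5 passed a 20 µm filter, whereas those of E5.0 and E5.25 did not. How many embryos went into a library is not stated. With 1 library per stage no difference could be tested, so intervals below are exact 95% intervals that cover counting error only.

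The ectoplacental cone is the trophoblast cap at the uterine pole of the early postimplantation embryo, next to the extraembryonic ectoderm, which holds the proliferating trophoblast progenitors. Its cells are known to contribute to the spongiotrophoblast and to secondary giant cells of the placenta. Ascl2, a basic helix-loop-helix factor, is needed for spongiotrophoblast, and Hand1, a factor of the same family, drives giant cell differentiation, while Elf5 and Cdx2 maintain trophoblast progenitors.

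The members, called gated cells, were set against the other trophoblast of the same library, in which the extraembryonic ectoderm type held 2 or more UMIs of Elf5, Cdx2 and Nat8l. The giant cell type held 3 or more UMIs of the Prl3d placental lactogen genes, at 5 or more per 10000. In-between cells met the member rule except for a single UMI of Elf5, Cdx2 or Nat8l. The other trophoblast counted 924 cells in the E5.0 library, 1081 in that of E5.25 and 1964 in that of E5.5. Members made up 0.324% of trophoblast in the E5.0 library (interval 0.0668 to 0.943%), 0.460% at E5.25 (0.150 to 1.07%) and 10.6% at E5.5 (9.35 to 11.97%). Depth moved with this share. The median kept cell held 17619 UMIs for E5.0, 19998.5 for E5.25 and 5019 for E5.5. At E5.5 the median member held 4149 UMIs, against 7387 in extraembryonic ectoderm type and 6118 in giant cell type cells.

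When every cell was first thinned at random to 4000 UMIs, the same rule found 98 cells in the E5.0 library, 110 in that of E5.25 and 249 in that of E5.5. These were 14.4%, 13.5% and 17.8% of trophoblast, with intervals of 11.9 to 17.3%, 11.3 to 16.1% and 15.9 to 19.9%. The thinning left out 26, 57 and 3115 shallower cells. Over 10 random draws the number ranged from 73 to 98 for E5.0, from 94 to 117 for E5.25 and from 218 to 253 for E5.5. At full depth the interval of E5.5 lay above those of both earlier stages. At matched depth the intervals of this draw overlapped, and those of the other draws were not computed. At full depth 74, 87 and 66 of the depth-matched cells counted as extraembryonic ectoderm type. All 8 members of E5.0 and E5.25, and 100 of the 124 members of E5.5 with 4000 or more UMIs, were found again at matched depth. These members made up 3.06%, 4.55% and 40.2% of the depth-matched cells of E5.0, E5.25 and E5.5. Most gated cells at matched depth were thus not members at full depth.

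**Figure D1:**
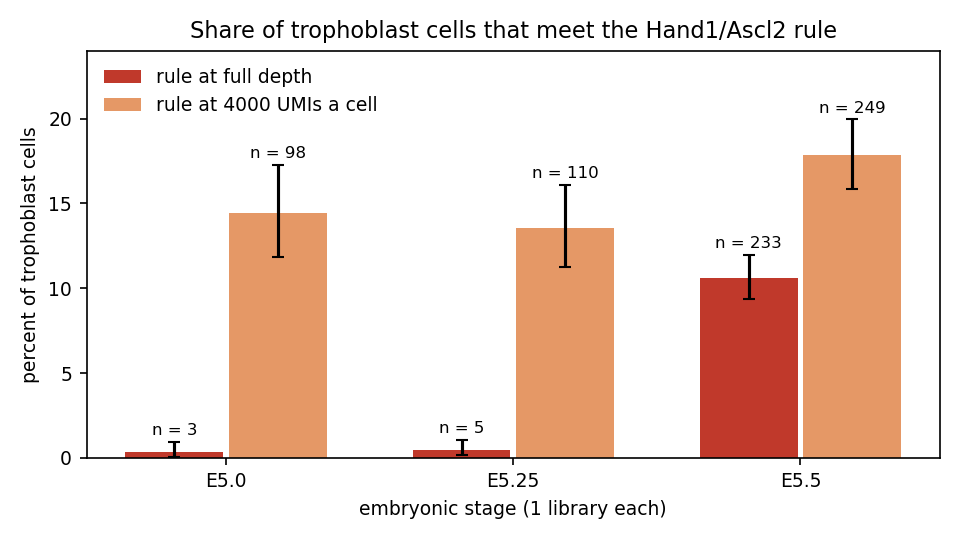
Percent of trophoblast cells that met the rule in each library, at full depth (left bar of each pair) and with each cell thinned to 4000 UMIs (right bar). Whiskers are exact 95% binomial intervals and n is the number of cells found, from 3 at full depth in E5.0 to 249 at matched depth in E5.5.

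The UMIs removed by the thinning were not themselves used to choose cells, but they come from the cells so chosen. They describe the levels of the rule genes in those cells. In these left-over UMIs Hand1 reached 943, 1081 and 1128 CPM (counts scaled to the same total in every class) in gated cells at E5.0, E5.25 and E5.5, against 459, 504 and 432 CPM in extraembryonic ectoderm type and 1552, 1644 and 1676 CPM in giant cell type cells. Ascl2 reached 109.5, 135 and 218 CPM in gated cells, against 27.1, 53.03 and 77.02 CPM in extraembryonic ectoderm type and 63.9, 60.03 and 87.9 CPM in giant cell type cells. Hand1 thus lay between these classes in every library, and Ascl2 lay above both. In-between cells held 947, 978 and 1238 CPM of Hand1 and 66.7, 71.5 and 209 CPM of Ascl2. At E5.5 their Ascl2 interval (186 to 235 CPM) overlapped that of gated cells (194 to 245 CPM), so the high Ascl2 of that library was not particular to gated cells.

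The progenitor genes did not behave alike. Cdx2 in the left-over UMIs stood at 33.1, 21.03 and 17.8 CPM in gated cells, against 88.96, 71.9 and 91.1 CPM in extraembryonic ectoderm type and 3.87, 4.80 and 2.84 CPM in giant cell type cells. Nat8l, which encodes the enzyme that makes N-acetylaspartate, stood at 18.6, 17.7 and 15.4 CPM in gated cells, against 38.8, 64.8 and 126 CPM in extraembryonic ectoderm type and 1.45, 8.80 and 3.78 CPM in giant cell type cells. Elf5 stood at 287, 291 and 239 CPM in gated cells, close to the 318, 321 and 332 CPM of extraembryonic ectoderm type cells and above the 218, 176 and 114 CPM of giant cell type cells. Cdx2 and Nat8l were thus lower than in extraembryonic ectoderm type cells in all 3 libraries. Elf5 was nearer to the level of those cells at E5.0 and E5.25 than at E5.5. Both classes were chosen on these genes in the same cells, which favours this direction, so the levels are a description and not a check of the gate.

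**Figure D2:**
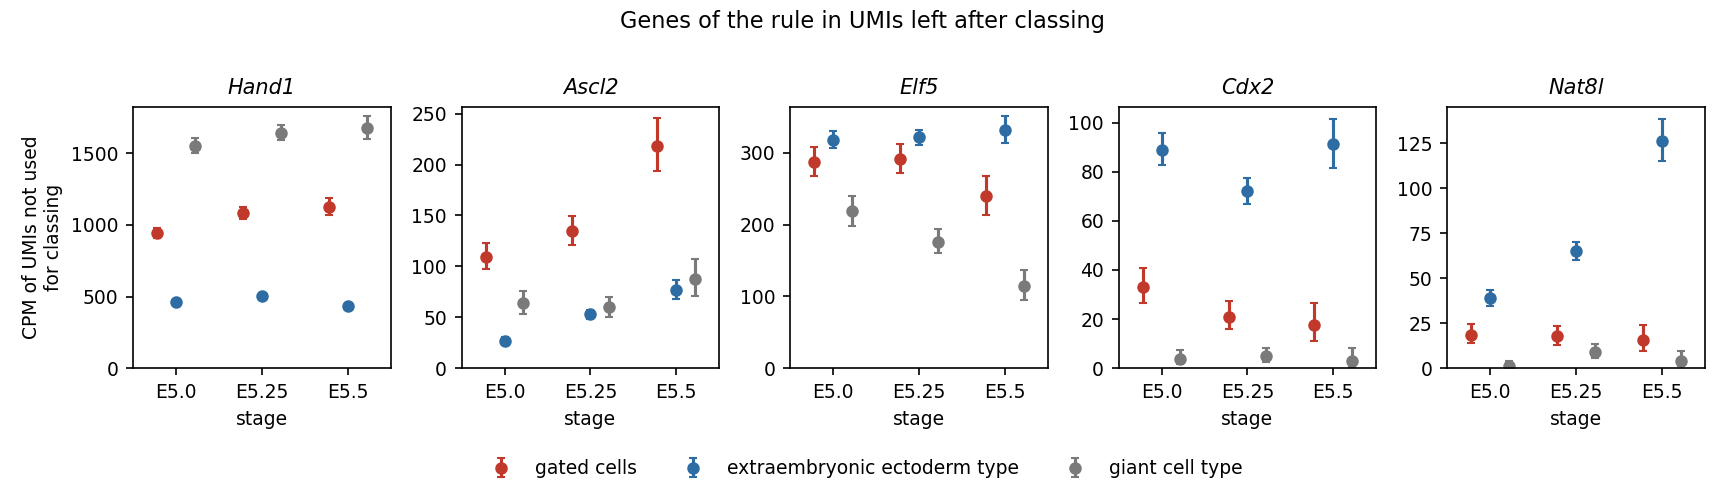
CPM of 5 rule genes in the UMIs left over after cells were classed at 4000 UMIs, by stage, for gated cells, extraembryonic ectoderm type and giant cell type cells. Whiskers are exact 95% Poisson intervals. Among the classes shown, which leave out in-between cells, Ascl2 was highest in gated cells at each stage and Hand1 of gated cells lay between the others. Elf5 of gated cells lay near the extraembryonic ectoderm level at E5.0 and E5.25.

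The label was checked against Phlda2 and Plac1, the markers of the ectoplacental cone that the rule did not use. Phlda2 is an imprinted, maternally expressed gene that restrains placental growth, and Plac1 is an X-linked gene expressed mainly in placenta. At E5.5 and full depth Phlda2 stood at 2696 CPM in members (2602 to 2794), against 1485 CPM in extraembryonic ectoderm type (1464 to 1507) and 1133 CPM in giant cell type cells (1089 to 1178). Plac1 stood at 438 CPM in members (399.9 to 478), against 161 CPM in extraembryonic ectoderm type (154 to 168) and 716 CPM in giant cell type cells (681 to 752). Epiblast-type cells of the library, which should lack both genes, held 221 CPM of Phlda2 and 32.6 CPM of Plac1. A Phlda2 UMI was present in 94.8% of members and 39.6% of epiblast-type cells, and a Plac1 UMI in 66.95% of members and 9.10% of epiblast-type cells. The median member held 4149 UMIs and the median epiblast-type cell 6020.5.

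Tpbpa, the usual marker of later spongiotrophoblast, had no UMI in any of the 233 members of E5.5, which allows a share of cells with a UMI of up to 1.29% (3 cells). Among the 249 cells of E5.5 chosen at matched depth 1 had a Tpbpa UMI. Of the markers outside the rule, Phlda2 was thus higher in members than in extraembryonic ectoderm and giant cell type cells, whereas Plac1 was higher in giant cell type cells. The label was therefore borne out only in part, and the cells are called by their gate.

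The stretches of 150 bases before the start sites of Phlda2, Ascl2 and Plac1 are shown because Phlda2 and Plac1 are the markers used to check the label and Ascl2 is a gene of the rule. They are from RefSeq on GRCm38.p6, at chr7:143502525-143502674, chr7:142969265-142969414 and chrX:53240111-53240260, all on the minus strand, for 1 start site of each gene. Capitals mark CANNTG, the E-box bound by basic helix-loop-helix factors as a class.
Phlda2: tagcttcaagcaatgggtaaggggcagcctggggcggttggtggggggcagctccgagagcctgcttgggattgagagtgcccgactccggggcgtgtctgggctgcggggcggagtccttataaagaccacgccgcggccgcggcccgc
Ascl2: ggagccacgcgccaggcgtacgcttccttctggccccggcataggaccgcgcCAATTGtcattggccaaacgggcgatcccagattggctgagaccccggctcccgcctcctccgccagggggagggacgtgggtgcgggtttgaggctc
Plac1: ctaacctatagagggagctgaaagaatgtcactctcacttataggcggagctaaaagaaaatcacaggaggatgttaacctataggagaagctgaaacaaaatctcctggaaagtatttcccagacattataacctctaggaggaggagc
The motif is its own reverse complement, so both strands were covered. It occurred at 1 place upstream of Ascl2 and not at all in the other stretches, and 47.4% of 27025 promoters of this length held it. Phlda2 and Ascl2 lie 532281 bases apart on chromosome 7, in the same imprinted region.

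Markers of other cell types were summed in the members of E5.5. Of 17 blood, immune and endothelial markers 16 were at 0, with a summed level of 7.91 CPM in members, 9.02 CPM in extraembryonic ectoderm type and 146 CPM in giant cell type cells. Pecam1 was the exception. Of 15 decidual markers 9 were at 0, and their sum was 6.15 CPM in members. Of 16 uterine epithelium markers 10 were at 0, and their sum was 257 CPM in members, 166 CPM in extraembryonic ectoderm type and 317 CPM in giant cell type cells. The sum of 11 visceral endoderm markers outside the rule was 196 CPM in members, 173 CPM in extraembryonic ectoderm type and 3626 CPM in endoderm-type cells. The sum of 9 epiblast markers outside the rule was 725 CPM in members, 989 CPM in extraembryonic ectoderm type and 2619 CPM in epiblast-type cells. Clustering of all cells placed 221 of the 241 members in trophoblast clusters and 1 in a visceral endoderm cluster. The other 19 lay in a cluster whose best score was for epiblast and which was left unnamed, since Rbm20, Elf5 and Fabp5 led it. Of the 221, 115 lay in a cluster led by Prl3d1, Prl3d2 and Hand1. That cluster also held 435 giant cell type and 662 extraembryonic ectoderm type cells. A cluster led by Plac1, Hand1 and Phlda2 held 71 members, and clusters led by Rbm20 and Elf5 held 31 and 4. The 607 highest doublet scores among the 8709 kept cells of the E5.5 library included 20 of the 233 members and 40 of the 1964 other trophoblast cells. Kept cells of E5.0, E5.25 and E5.5 shared 6 to 12 barcodes between any pair of libraries.

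At E5.5 and full depth 54 of 6321 genes were at least 2-fold higher in members than in the other trophoblast as a whole (0.854%), and 91 were at least 2-fold lower (1.44%). Scaling by median-of-ratios or TMM factors gave 32 higher and 119 lower. The 145 genes became 371 with 2500 genes as the minimum per cell, 265 without giant cell type cells, 84 with other trophoblast taken from clusters and 41 at a minimum of 50 CPM. The fold is a ratio of plain CPM of summed counts, taken among genes at 20 CPM or more in either class. Entpd1, an ectonucleotidase that degrades extracellular ATP, stood at 192 CPM in members and 86.6 CPM in other trophoblast. Ank2, an ankyrin that anchors membrane proteins to the cytoskeleton, stood at 332 CPM in members and 158 CPM in other trophoblast, and Trim8 at 275 CPM in members and 137 CPM in other trophoblast. Ccnd1, which encodes the G1 cyclin D1, stood at 52.7 CPM in members and 25.4 CPM in other trophoblast, and the other named higher genes were Sema6a, Fignl2 and Csgalnact1.

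Of the 17 measured extraembryonic ectoderm markers 6 were at least 2-fold lower in members, namely Eomes, Esrrb, Bmp4, Bmp8b, Wnt7b and Sox21, and none was higher. The median log2 ratio of the list was -0.44, beside 0.05 over all genes tested. Eomes, a T-box factor of trophoblast progenitors, stood at 101 CPM in members and 229.7 CPM in other trophoblast. Bmp4, the signal that extraembryonic ectoderm sends to the epiblast, stood at 19.3 CPM in members and 69.5 CPM in other trophoblast. Id2, an inhibitor of basic helix-loop-helix factors, stood at 249.5 CPM in members and 675 CPM in other trophoblast, and Fabp5, a fatty acid binding protein, at 93.1 CPM in members and 276 CPM in other trophoblast. Sox3 stood at 17.6 CPM in members, against 82.8 CPM in other trophoblast. The other named lower genes were Upp1, Inpp1, Morc4, Rbm20, Akap17b, Efnb2, Pou3f1 and Timm10b. With members of all 3 libraries required to agree, 10 of 5723 genes passed the 2-fold limit upward (0.175%) and 43 downward (0.751%), but 2 of the 3 libraries held only 3 and 5 members, and the 53 genes became 82 without E5.0 and 1049 without E5.5. Entpd1 was the single higher gene that also passed the 50 CPM minimum for named genes. The lower genes named by that rule were Fabp5, Inpp1, Rbm20, Id2, Pou3f1, Efnb2, Timm10b, Bmp4, Oxct1, Car2, Morc4 and Fbxo21.

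The in-between cells, which differ from members by a single progenitor UMI, were set against them next. At E5.5 33 of 6297 genes passed the limit upward in members (0.524%) and 17 downward (0.27%). At matched depth no gene of 5577 was 2-fold higher or lower in all 3 libraries (0% each way). Phlda2 stood at 2696 CPM in members and 3052 CPM in in-between cells, and Plac1 at 438 CPM in members and 439 CPM in in-between cells.

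Because other trophoblast mixes progenitor-like and giant cells, the depth-matched gated cells were compared with each class alone. The levels are CPM of all UMIs of the cells so chosen, and a gene counted when its fold was 2 or more in the same direction in all 3 libraries. Against extraembryonic ectoderm type cells 57 of 5668 genes were higher (1.01%) and 25 lower (0.441%), which became 45 and 40 with TMM scaling. The 82 genes became 131 in another random draw, 194 with 3 or more UMIs of Hand1 and Ascl2, 150 without E5.0 and 33 at a minimum of 50 CPM. Against giant cell type cells 64 of 5721 genes were higher (1.12%) and 127 lower (2.22%), and these 191 genes became 337 without E5.5 and 104 at a minimum of 50 CPM. Against the whole of the other trophoblast none of 5619 was higher (0%) and 5 were lower (0.089%), among them Inpp1 and Nppb, whose high class differed. Inpp1 was highest in extraembryonic ectoderm type and Nppb in giant cell type cells.

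Plac1 and Cdh5 led the genes that were higher than in extraembryonic ectoderm. Plac1 stood at 292, 251 and 439 CPM in gated cells of E5.0, E5.25 and E5.5, against 77.5, 75.2 and 114 CPM in extraembryonic ectoderm type cells, which gave folds of 3.76, 3.34 and 3.84. Cdh5, the cadherin of vascular endothelium that trophoblast giant cells also express, stood at 155, 167 and 206 CPM in gated cells, against 42.97, 45.1 and 41.6 CPM in extraembryonic ectoderm type cells, with folds of 3.61, 3.70 and 4.94. No interval of the gated cells overlapped that of extraembryonic ectoderm for either gene, for example 141 to 169.9 against 39.00 to 47.2 CPM for Cdh5 at E5.0.

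Among transcription factors Gata2, which activates placental hormone genes, stood at 118, 122 and 253 CPM in gated cells and 38.6, 42.5 and 65.5 CPM in extraembryonic ectoderm type cells. Irx1, a homeobox factor, stood at 216, 228 and 292 CPM in gated cells and 75.3, 79.3 and 77.2 CPM in extraembryonic ectoderm type cells. Klf6 and Zfp608, both zinc finger genes, had log2 ratios of CPM plus 10 of 1.05, 1.07 and 1.20 and of 1.15, 1.04 and 1.38. Of 14 measured trophoblast factors outside the rule, Gata2 and Klf6 were at least 2-fold higher and none lower.

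Of 13 measured immediate early genes 4 were at least 2-fold higher than in extraembryonic ectoderm type cells (Junb, Jund, Klf4 and Klf6) and none lower. Their median log2 ratios were 0.65, 0.89 and 1.01, beside 0.02, 0.02 and 0.02 over all genes tested. Junb, a subunit of the AP-1 factor, stood at 248, 237 and 345 CPM in gated cells and 119, 112 and 137 CPM in extraembryonic ectoderm type cells. Klf4 stood at 56.3, 49.96 and 92.1 CPM in gated cells, against 23.9, 22.5 and 29.9 CPM in extraembryonic ectoderm type cells. Giant cell type cells held 471, 358 and 406 CPM of Junb, more than gated cells in every library.

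The remaining named genes on the higher side covered membrane, cytoskeletal and secreted products. Entpd1 stood at 104, 94.1 and 174 CPM in gated cells and 39.5, 32.6 and 35.9 CPM in extraembryonic ectoderm type cells. Marcks, an actin-binding substrate of protein kinase C, stood at 425, 391.9 and 551 CPM in gated cells and 184, 183 and 155 CPM in extraembryonic ectoderm type cells. Phactr1, a regulator of actin and protein phosphatase 1, stood at 61.9, 76.7 and 74.6 CPM in gated cells and 22.99, 26.7 and 25.01 CPM in extraembryonic ectoderm type cells. All of these genes were above the extraembryonic ectoderm level in each library. Prl7a1, a hormone of the placental prolactin family, stood at 65.2, 83.2 and 80.3 CPM in gated cells and 22.7, 15.9 and 19.3 CPM in extraembryonic ectoderm type cells. Cobll1 and Nhs had folds of 2.88, 2.87 and 4.16 and of 3.13, 2.87 and 4.42.

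On the lower side stood several transcription factors. Pou3f1, a POU factor also used by epiblast, stood at 172, 153 and 92.96 CPM in gated cells, against 373, 353 and 387 CPM in extraembryonic ectoderm type cells, and Sox3, a SoxB1 factor, at 24.2, 14.5 and 15.7 CPM in gated cells, against 57.8, 77.3 and 126 CPM in extraembryonic ectoderm type cells. Efnb2, an ephrin ligand, stood at 46.3, 27.7 and 14.8 CPM in gated cells and 119.6, 120.2 and 118 CPM in extraembryonic ectoderm type cells. Inpp1, an inositol phosphatase, had folds of 0.321, 0.326 and 0.115, Hs3st3b1, a heparan sulfate sulfotransferase, of 0.326, 0.225 and 0.2202, Pbx3 of 0.496, 0.352 and 0.246 and Upp1, a uridine phosphorylase, of 0.436, 0.498 and 0.298. All 7 of these ratios were furthest from 1 at E5.5.

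Among 16 measured extraembryonic ectoderm markers outside the rule, those at least 2-fold lower in all 3 libraries included Esrrb and Sox21, and none was higher. Esrrb, a nuclear receptor of trophoblast stem cells, stood at 14.6, 14.8 and 6.11 CPM in gated cells and 37.1, 37.8 and 57.2 CPM in extraembryonic ectoderm type cells. Sox21 stood at 21.8, 16.1 and 7.86 CPM in gated cells and 54.2, 46.1 and 66.8 CPM in extraembryonic ectoderm type cells. The median of the list was -0.29, -0.53 and -0.89 on the log2 scale at E5.0, E5.25 and E5.5, so the list as a whole lay lower in the later libraries. None of 25 S phase genes and none of 25 G2 and mitosis genes passed in either direction, with medians between -0.09 and 0.02 on the log2 scale over the 3 libraries.

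**Figure D3:**
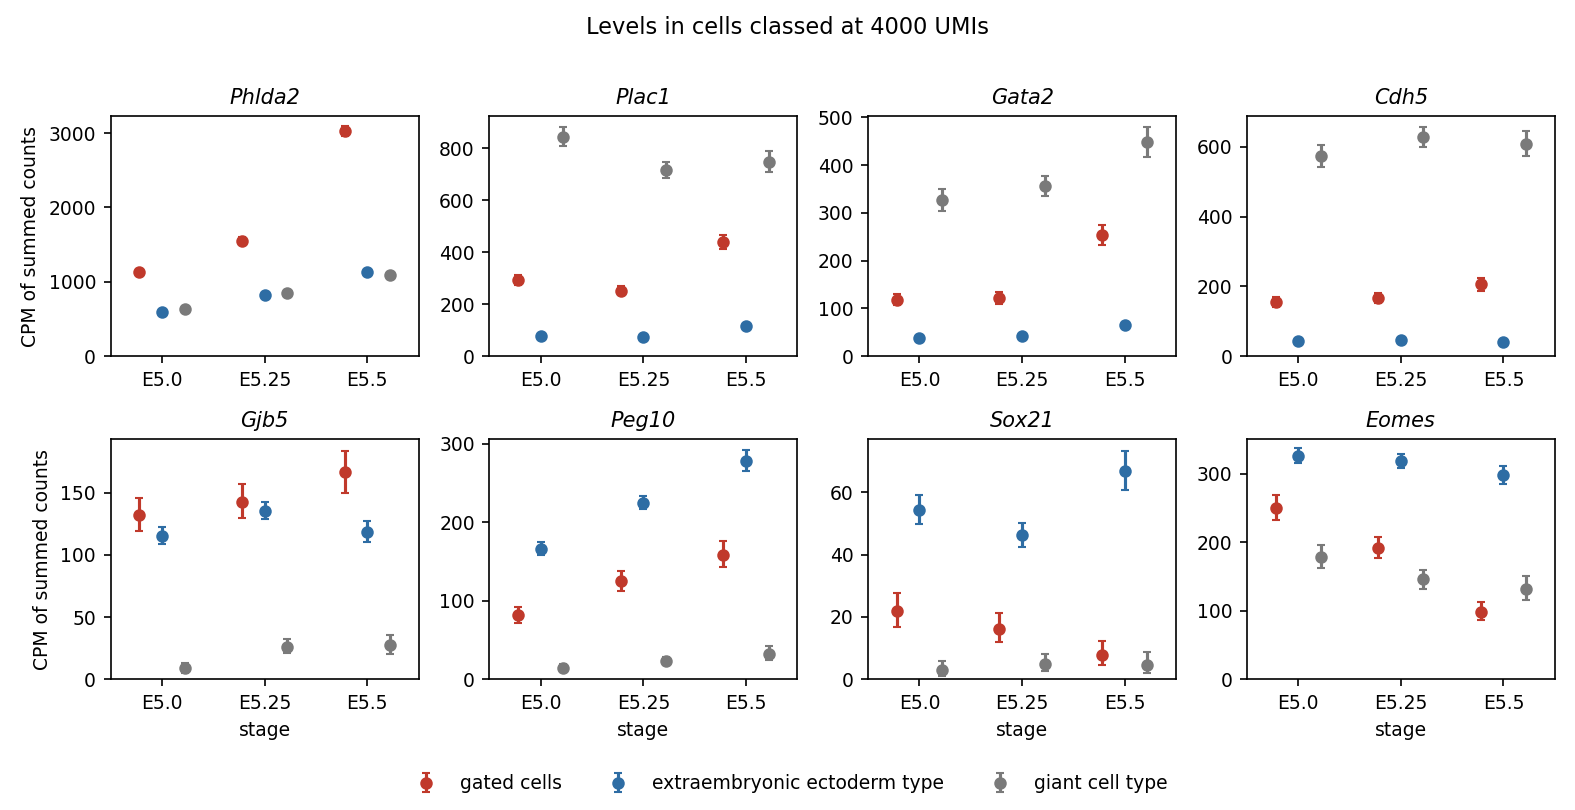
CPM of 8 genes by stage in gated cells, extraembryonic ectoderm type and giant cell type cells classed at 4000 UMIs, with exact 95% Poisson intervals. Among the classes shown, which leave out in-between cells, Phlda2 was highest in gated cells at every stage. Plac1, Gata2 and Cdh5 lay between the other classes, and Gjb5 lay near the extraembryonic ectoderm level at E5.0 and E5.25. Eomes of gated cells lay between the other classes at E5.0 and E5.25 and below both at E5.5.

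Against giant cell type cells the connexin gene Gjb5, whose product forms gap junctions, was higher in gated cells. Gjb5 stood at 132, 143 and 166 CPM in gated cells, against 8.70, 26.2 and 27.1 CPM in giant cell type cells. In extraembryonic ectoderm type cells it stood at 115, 136 and 119 CPM, near the level of gated cells at E5.0 and E5.25 and below it at E5.5.

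Peg10, a paternally expressed gene of retrotransposon origin that the placenta needs, stood at 81.4, 125 and 158 CPM in gated cells, against 14.1, 22.9 and 32.7 CPM in giant cell type cells. Id2 stood at 588, 608 and 287 CPM in gated cells, against 125, 72.3 and 84.7 CPM in giant cell type cells. Fabp3, a fatty acid binding protein, stood at 955, 739.7 and 505 CPM in gated cells, against 388, 218 and 102 CPM in giant cell type cells. Of 15 measured cholesterol synthesis genes 4 were at least 2-fold higher (Pmvk, Mvd, Fdps and Fdft1) and none lower, with median log2 ratios of 0.76, 0.92 and 0.64, beside -0.01, -0.01 and 0.00 over all genes tested. Fdps, which makes farnesyl diphosphate, stood at 145, 182 and 199 CPM in gated cells and 59.2, 69.3 and 70.3 CPM in giant cell type cells. Bex1, Rbm20, Fbxo21, Pou3f1, Ndrg1 and Tceal9 completed the named genes on this side, with folds at E5.5 between 2.32 for Tceal9 and 5.56 for Rbm20.

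Vessel-type genes were lower in gated than in giant cell type cells. Of 8 measured genes of that list 6 were at least 2-fold lower (Cdh5, Pecam1, Esam, Procr, Thbd and Tfpi) and none higher, with median log2 ratios of -1.74, -1.77 and -1.64. Pecam1, an adhesion molecule of endothelium, stood at 18.5, 23.2 and 13.97 CPM in gated cells and 137, 162 and 154 CPM in giant cell type cells. Tfpi, an inhibitor of tissue factor, stood at 36.1, 34.2 and 27.5 CPM in gated cells, against 251, 259.7 and 189 CPM in giant cell type cells. Esam, an adhesion molecule of endothelial contacts, stood at 12.6, 19.02 and 30.1 CPM in gated cells, against 104, 134 and 167 CPM in giant cell type cells.

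Other genes lower than in giant cell type cells were Nppb, which encodes a natriuretic peptide, at 65.2, 39.6 and 28.8 CPM in gated cells and 759.8, 902 and 267 CPM in giant cell type cells. Cd47, the surface signal that restrains phagocytosis, stood at 31.1, 21.6 and 26.6 CPM in gated cells and 242, 220.2 and 240.4 CPM in giant cell type cells. Plac8 stood at 93.3, 115 and 222 CPM in gated cells, against 647, 851 and 902 CPM in giant cell type cells, and Plet1, a surface marker of trophoblast, at 151, 134 and 252 CPM in gated cells, against 614, 724 and 974 CPM in giant cell type cells. Scin, an actin-severing protein, Map1b, a microtubule-associated protein, Sema6a, a semaphorin, Kctd12 and Pate12 had log2 ratios at E5.5 of -2.65, -1.95, -2.07, -2.30 and -2.73, in that order. Of 12 measured integrin and matrix genes 3 were lower (Itga1, Itgb3 and Hspg2) and none higher.

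**Figure D4:**
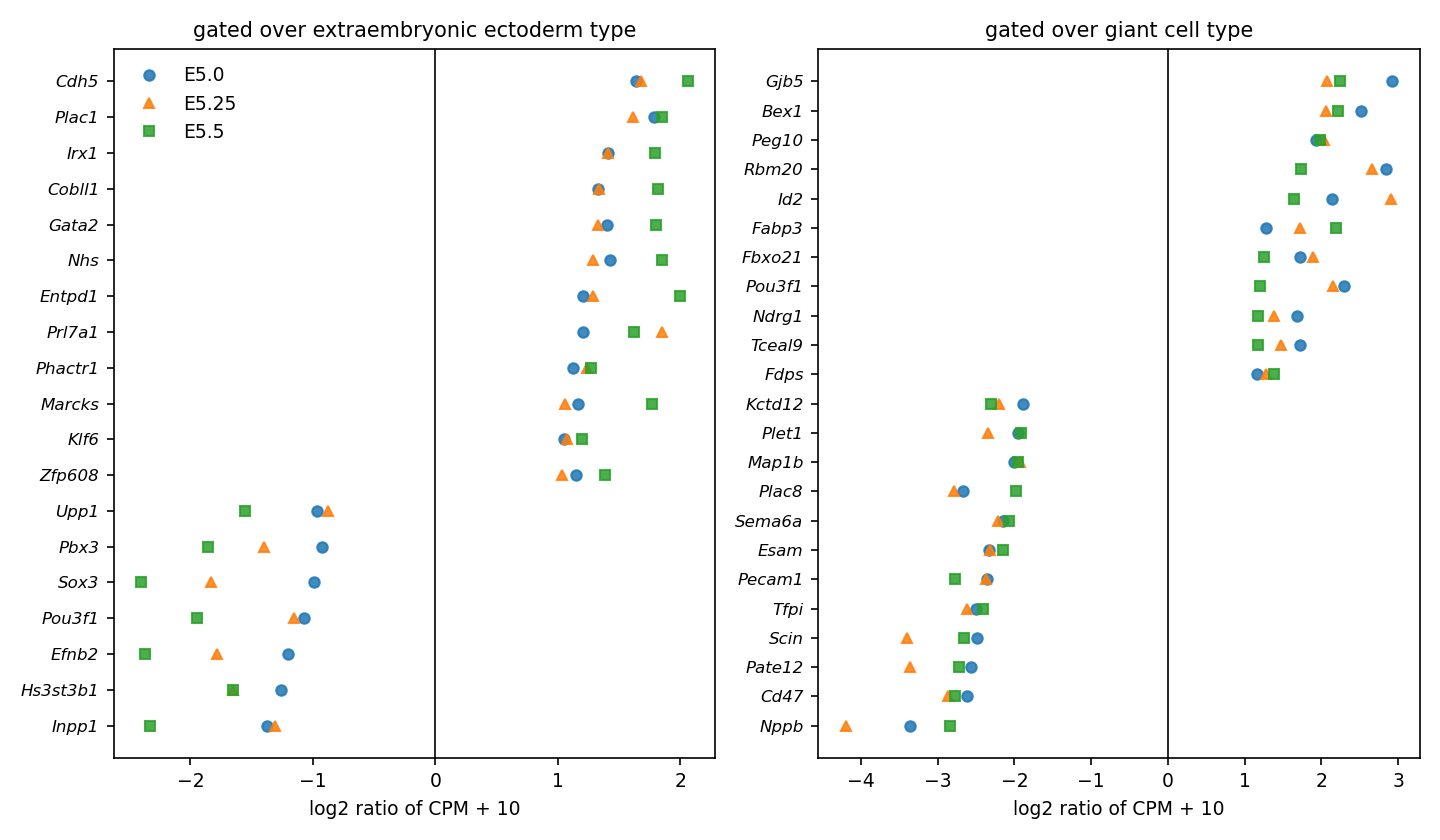
Log2 ratios of CPM plus 10 of gated cells over extraembryonic ectoderm type cells (left) and over giant cell type cells (right) for named genes, with 1 point per library. All 3 points of each gene lie on the same side of 0, and Pou3f1 lies below 0 on the left and above 0 on the right.

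For most of these genes the gated cells held a middle level. Of the 57 genes higher than in extraembryonic ectoderm type cells 49 were higher still in giant cell type cells in all 3 libraries, and 1 was lower there in all 3. Of the 127 genes lower than in giant cell type cells 103 were lower still in extraembryonic ectoderm type cells in all 3 libraries. Of the 25 genes lower than in extraembryonic ectoderm type cells 22 were lower still in giant cell type cells, and of the 64 genes higher than in giant cell type cells 46 were higher still in extraembryonic ectoderm type cells. The share of all compared genes with a middle level was not counted, so these counts describe the called genes alone.

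Few genes set the gated cells beyond both classes. Genes were ranked by their smallest fold over either other class in any of the 3 libraries, a ranking made after the levels were seen, among 5997 genes. Phlda2 came first, at 1.77, and the next gene stood at 1.36. Phlda2 had 1129.5, 1554 and 3027 CPM in gated cells, against 589, 818 and 1130.4 CPM in extraembryonic ectoderm type and 637, 852 and 1087 CPM in giant cell type cells. Epiblast-type cells of the same libraries held 93.3, 150.1 and 295 CPM. In-between cells of E5.5 held 3052 CPM of Phlda2 at full depth, against 2696 CPM in members, so its level was not particular to gated cells. Rps6ka6, a ribosomal S6 kinase, stood at 142, 169 and 211 CPM in gated cells, against 81.6, 102 and 106 CPM in extraembryonic ectoderm type and 104, 82.9 and 114 CPM in giant cell type cells. Sdc4, a syndecan, stood at 529, 443 and 441 CPM in gated cells, against 308, 269 and 257 CPM in extraembryonic ectoderm type and 337, 276 and 329 CPM in giant cell type cells. Dusp9, a phosphatase of MAP kinases and X-linked like Rps6ka6, stood at 351, 350.04 and 542 CPM in gated cells, against 278, 265 and 351 CPM in extraembryonic ectoderm type and 191, 161 and 213 CPM in giant cell type cells. At the other end of the ranking stood Mmp9, Fhl2 and Paip2b. Mmp9, the gelatinase of invading giant cells, reached 0.662, 0.645 and 0.436 CPM in gated cells, against 2.71, 2.03 and 2.61 CPM in extraembryonic ectoderm type and 33.95, 48.1 and 34.9 CPM in giant cell type cells, and the levels of gated cells rest on a few UMIs in each library.

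Across stages, 69 of 6095 genes were at least 2-fold higher in depth-matched gated cells of E5.5 than of E5.0 (1.13%), with E5.25 also above E5.0, and 82 were at least 2-fold lower (1.35%). Median-of-ratios scaling gave 53 and 94, and the 151 genes became 59 at a minimum of 50 CPM. The same counts were 26 of 5975 (0.435%) and 27 (0.452%) in extraembryonic ectoderm type cells, and 90 of 6039 (1.49%) and 46 (0.762%) in giant cell type cells. Stage cannot be told apart from library, from the 20 µm filter used for E5.5 alone, or from the depth of that library. Members at full depth were not compared across stages here, since E5.0 held 3.

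Imprinted genes that restrain growth were among the genes at their highest at E5.5. Phlda2 had 1129.5, 1554 and 3027 CPM at E5.0, E5.25 and E5.5, 2.68 times as much at E5.5 as at E5.0. In extraembryonic ectoderm type cells that ratio was 1.92 and in giant cell type cells 1.71. Cdkn1c, a cyclin-dependent kinase inhibitor of the same imprinted region, had 39.7, 63.5 and 147 CPM in gated cells, a ratio of 3.69, beside 1.79 in extraembryonic ectoderm type and 3.62 in giant cell type cells. Of 22 measured imprinted genes Phlda2, Cdkn1c and Cd81 were at least 2-fold higher and none lower. Nrk, an X-linked kinase that limits growth of the spongiotrophoblast, had 12.2, 31.6 and 102 CPM, with a ratio of 8.34 in gated cells, 4.49 in extraembryonic ectoderm type and 4.45 in giant cell type cells.

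Arid3a, a factor of trophectoderm differentiation, had 30.8, 54.8 and 89.04 CPM in gated cells of the same stages, Sdc1, a syndecan, 63.2, 78.3 and 163 CPM, the corepressor gene Bcor 174, 237 and 405 CPM and Plac8 93.3, 115 and 222 CPM. Of 7 measured glycogen genes Ugp2 and Pgm1 were at least 2-fold higher at E5.5. Every one of these genes was also higher at E5.5 than at E5.0 in giant cell type cells.

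Genes lower at E5.5 included 4 extraembryonic ectoderm markers. Eomes had 251, 192 and 98.6 CPM in gated cells at E5.0, E5.25 and E5.5, beside 327, 319 and 298 CPM in extraembryonic ectoderm type cells, a difference between classes that widened with stage. Bmp4 had 56.9, 29.3 and 13.5 CPM in gated cells, beside 111, 96.7 and 106 CPM in extraembryonic ectoderm type cells. Of 14 measured extraembryonic ectoderm markers Eomes, Bmp4, Bmp8b and Sox21 were at least 2-fold lower and none higher. Ly6a, the stem cell antigen Sca-1, had 125, 84.8 and 13.1 CPM in gated cells and 165, 100.2 and 32.8 CPM in extraembryonic ectoderm type cells, and Lgals3, a galectin, 81.7, 65.4 and 21.4 CPM in gated cells and 96.8, 90.2 and 58.2 CPM in extraembryonic ectoderm type cells. Slc7a8, an amino acid transporter, had 144, 83.8 and 46.7 CPM, Cmtm5 77.4, 64.8 and 26.2 CPM, Arhgap31 117, 60.9 and 41.9 CPM and Dppa5a, an early embryonic gene, 632, 482 and 246 CPM. Slc7a8, Cmtm5 and Dppa5a were lower at E5.5 by like amounts in extraembryonic ectoderm type cells, with ratios of 0.414, 0.407 and 0.370, beside 0.324, 0.338 and 0.389 in gated cells.

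The members were next split by which of the genes Hand1 and Ascl2 had a UMI. At E5.5 and full depth 102 members held Hand1 alone, 126 held both genes and 5 held Ascl2 alone. Their median depths were 3647.5, 4436.5 and 4334 UMIs. All 233 members together held 247 Ascl2 UMIs, so a cell can lack a UMI of a gene that it expresses. The split therefore cannot show that members differ in these 2 genes. Phlda2 stood at 1895 CPM in members with Hand1 alone, 3105 CPM in those with both and 5567 CPM in the 5 with Ascl2 alone. Plac1 varied less, at 400.3, 466 and 355 CPM in members with Hand1 alone, with both and with Ascl2 alone.

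To widen this view, all trophoblast cells under the Prl3d limit were split by the 2 genes at 4000 UMIs, with or without the progenitor genes, a split chosen after the values above were seen. Cells with 2 or more Ascl2 UMIs and no Hand1 UMI numbered 2, 5 and 24 at E5.0, E5.25 and E5.5, of which 1, 2 and 7 met the member rule. Cells with both, at 2 or more Ascl2 UMIs, numbered 16, 34 and 152, and cells with 2 or more Hand1 UMIs and no Ascl2 numbered 303, 302 and 384. Phlda2 stood at 5894, 6028 and 6639 CPM in cells with Ascl2 and no Hand1, at 1716, 2646 and 3839 CPM in cells with both and at 773, 1023 and 1878 CPM in cells with Hand1 and no Ascl2. The intervals of the 3 groups did not overlap at any stage, for example 6316 to 6973, 3739 to 3942 and 1833 to 1923 CPM at E5.5.

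The cells with Ascl2 and no Hand1 also differed in Cdh5 and Gata3. Cdh5 stood at 0, 22.3 and 20.9 CPM in them, against 263, 229 and 258 CPM in cells with both and 124, 109.6 and 143 CPM in cells with Hand1 and no Ascl2. Gata3, a GATA factor of trophoblast, stood at 66.7, 22.3 and 62.6 CPM in them, against 193, 215 and 193 CPM in cells with both and 141, 128 and 139.6 CPM in cells with Hand1 and no Ascl2. Both genes were lower in cells with Ascl2 and no Hand1 by more than the counting intervals, except for Gata3 at E5.0. At E5.5, where the cells with Ascl2 and no Hand1 numbered 24, Cdkn1c stood at 321 CPM in them (254 to 402), against 182 CPM (161 to 206) in cells with both and 103 CPM (92.7 to 114) in cells with Hand1 and no Ascl2. At E5.0 and E5.25 the Cdkn1c intervals of the cells with Ascl2 and no Hand1, at 66.7 and 22.3 CPM, overlapped those of both other groups. Peg10 stood at 0, 167 and 405 CPM in cells with Ascl2 and no Hand1 at E5.0, E5.25 and E5.5, against 45.02, 45.001 and 187 CPM in cells with both and 121, 172 and 181 CPM in cells with Hand1 and no Ascl2, so they were highest at E5.5 alone. Elf5 stood at 234 CPM at E5.5 in cells with Ascl2 and no Hand1, against 236 CPM in cells with both and 271 CPM in cells with Hand1 and no Ascl2. Of the 24 cells 1 had a doublet score among the highest of the library, against 1 of the 152 cells with both and 14 of the 384 with Hand1 and no Ascl2. The groups of E5.0 and E5.25 are too small to carry more than their counting intervals, and 1 of the 2 cells at E5.0 was among the highest doublet scores. These 2 cells held 178 CPM of Pou5f1, an epiblast gene.

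**Figure D5:**
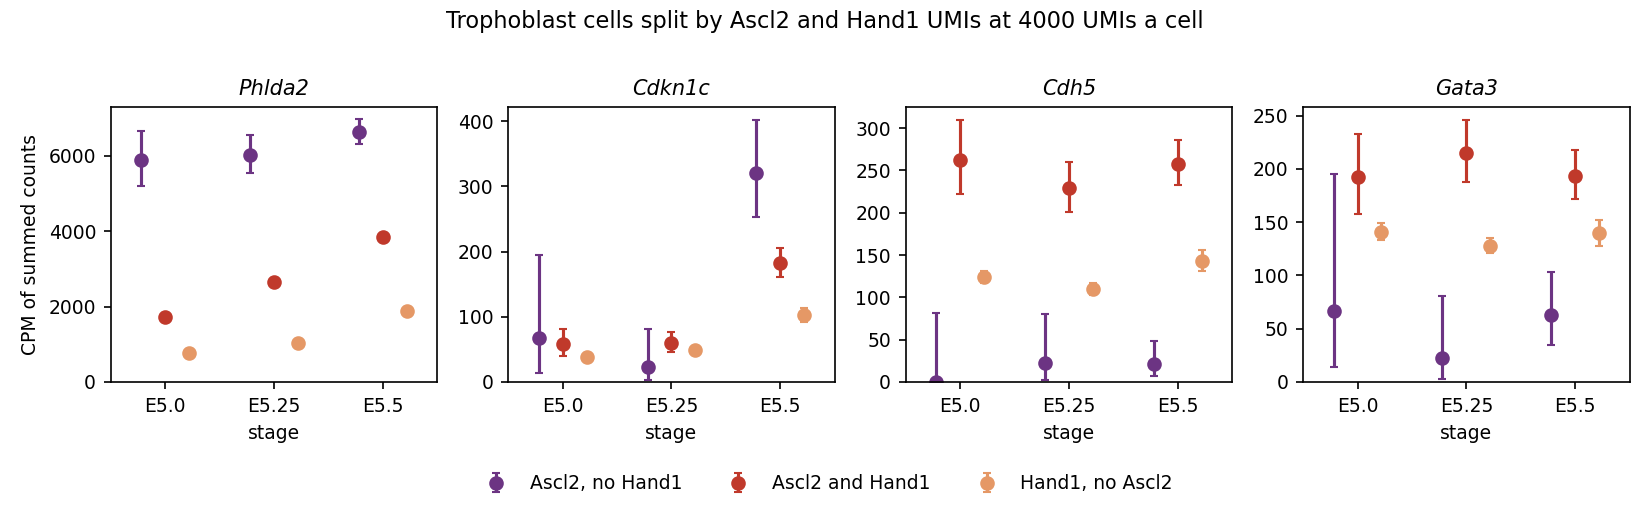
CPM of 4 genes by stage in trophoblast cells split at 4000 UMIs into those with 2 or more Ascl2 UMIs and no Hand1, those with 2 or more Ascl2 UMIs and Hand1, and those with 2 or more Hand1 UMIs and no Ascl2. Whiskers are exact 95% Poisson intervals. Phlda2 was highest and Cdh5 lowest in cells with Ascl2 and no Hand1, which numbered 24 at E5.5.

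Cells on either side of the thresholds were compared last. At E5.5 41 members stood at exactly 2 UMIs of Hand1 and Ascl2, and 82 cells at 1 UMI met the rest of the rule. Phlda2 was at 2600.5 CPM in the cells just inside and 1286 CPM in those just outside, Plac1 at 218 CPM inside and 114 CPM outside, and Gata2 at 82.6 CPM inside and 88.7 CPM outside. At the giant cell limit 12 members held 2 Prl3d UMIs and 9 cells outside held 3. Their Cdh5 levels of 623 CPM inside and 369 CPM outside were both above the 184 CPM of all members.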

How the data were processed

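Single cells were counted in 6 libraries, of which E5.0, E5.25 and E5.5 were used. The deposited values are raw counts of UMIs, one for each gene in each barcode; per the file headers they came from Cell Ranger 7.1.0. The submitters' processing notes name mm10, GRCm38 and hg38 without roles; for the annotation release, alignment settings and cell calling: not given in the sources used here. Libraries totalled 80593552 to 112702098 UMIs.

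Cells with at least 1500 genes and at most 15% mitochondrial counts were kept, doublets included. Counts were summed per library and class and scaled to CPM with scipy 1.17.1; log2 ratios are of CPM plus 10, folds of plain CPM. Rule genes were left out of all gene counts. Scrublet scores and Leiden clusters (resolution 1.0, 30 components) came from scanpy 1.11.5. Fold calling was checked on simulated counts. Gene positions were matched to GENCODE M21 (99.6% of identifiers).

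The members and the 34 gene lists were chosen with earlier results of these data known. Named genes had 2-fold or larger ratios in one direction in all 3 libraries, 50 CPM or more in the higher class and 0.2 or more of the epiblast- and endoderm-type level; the 12 strongest each way were taken, and 8 across stages. Unnamed gene models and ribosomal protein genes were left out. Besides these, list members past the limit are named. Some genes and lists that this rule names are not reported here. The planned comparison over full-depth members in 3 libraries rested on 3 and 5 cells in 2 of them, so E5.5 alone, and cells chosen at 4000 UMIs, were added after the counts were seen. No tests were made, because each stage has 1 library.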

Additional observations from a re-analysis of the deposited data

Results flagged for a closer look

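Cells that meet the rule also occurred before the stages it names, in libraries that none of the comparisons uses. At full depth it found 8 cells at E4.5 and 3 at E4.75, and with cells thinned to 4000 UMIs it found 16 at E4.5 and 72 at E4.75, beside 79 and 250 other trophoblast cells. The 16 and the 72 cells are above 3, the limit used for flagging a count. That limit does not say how many cells would pass the gate through sampling of few UMIs. Phlda2 stood at 149 CPM (103 to 209) in the 16 cells of E4.5 and at 324 CPM (306 to 343) in the 72 cells of E4.75. Plac1 stood at 413 and 429.9 CPM, Cdh5 at 224 and 274 CPM, and Eomes at 408 and 389 CPM. Levels in the other trophoblast of these libraries are not given here. Superovulated females aged 4 weeks gave the embryos of E4.5, which were flushed out, and their cells passed a 20 µm filter, whereas those of E4.75 came from females aged 7 weeks, without superovulation, flushing or filter. The stage cannot be told apart from these differences.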

How the results depend on the processing

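No paired analysis was possible because each stage has 1 library and no test was made. Named genes were rerun for members against other trophoblast at E5.5 and for depth-matched gated cells against extraembryonic ectoderm type and giant cell type. No direction was reversed among these. Directions across stages, against in-between cells and in the split by Ascl2 and Hand1 were not rerun. Another random draw, left-out libraries and removal of giant cell type cells were applied to counts alone. Of 624 values of named genes 607 moved by under 0.5 on the log2 scale and 17 by more. Of 91 counts and shares 58 stayed within 1.5 times the reported count, or inside the interval of the reported share, and 33 did not. The cause was not tested.

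The share of gated cells at E5.0, E5.25 and E5.5 was 14.4%, 13.5% and 17.8% at 4000 UMIs. With 2500 genes as the minimum it was 0.0941% at E5.25 and 3.66% at E5.5, where a minimum of 1000 genes gave 16.2% and 3 or more UMIs of Hand1 and Ascl2 gave 9.16%. The 53 genes called against other trophoblast in all 3 libraries became 34 and 90 with minimums of 1000 and 2500 genes, 5 at 4000 UMIs, 104 without giant cell type cells, 2486 with 3 counts as the only minimum and 18 at 50 CPM. Leaving out 1 library gave 76 to 1049, with 82 without E5.0 and 1049 without E5.5. The 145 genes of E5.5 alone became 371 with 2500 genes, 84 with other trophoblast taken from clusters, 265 without giant cell type cells, 4835 with 3 counts and 41 at 50 CPM.

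The 82 genes called against extraembryonic ectoderm type became 126 at a 10% mitochondrial limit, 125 without doublets, 194 with 3 or more UMIs of Hand1 and Ascl2, 370 with 3 counts, 33 at 50 CPM and 131 in another random draw. Leaving out 1 library gave 92 to 150, the highest without E5.0. The 191 genes called against giant cell type became 621 with 3 counts and 104 at 50 CPM, and 206 to 337 with 1 library left out, the highest without E5.5. Across stages the 3081 genes at full depth became 151 at 4000 UMIs and 1685 at 50 CPM, and the 151 became 59 at 50 CPM. The 3 and 5 members of E5.0 and E5.25 at full depth limit every count that uses them.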
